A study of Mus musculus with 4 samples.

Results

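The genes described here are the ligands and receptors of the tumour necrosis factor (TNF) superfamily with their cytoplasmic TRAF and death-domain partners. They were taken by symbol: every Tnfrsf, Tnfsf and Traf1 to Traf7 gene, plus Tnf, Fas, Fasl, Cd40, Ltbr, Eda, Edar, Eda2r, Relt, Tradd, Fadd and Ripk1. This gave 51 of the 49585 genes in the count files. They comprise 14 ligands, 26 receptors, 7 TRAFs, 3 death-domain adaptors or kinases and Tnfsf13os, a noncoding antisense RNA that matches by its symbol. RNA came from C2C12, a mouse myoblast line derived from C3H muscle. The cells under study overexpressed C/EBPβ from a retrovirus and the controls carried the empty pLXSN retrovirus, with 2 libraries in each group. All cells, controls included, went through 7 days of G418 at 1200 μg/ml, were kept as pooled transduced populations rather than clones, and then grew for 48 h as undifferentiated myoblasts. Both groups were in growth medium with 10% serum, at 5% CO2.

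TNF superfamily ligands are trimeric, mostly membrane-anchored proteins that cluster their receptors when they bind. Receptors with a cytoplasmic death domain recruit Tradd, Fadd and Ripk1 and can lead to caspase activation, while the others bind TRAF proteins, most of which are scaffolds or ubiquitin ligases that pass the signal to NF-κB and MAP kinases. In skeletal muscle, TNF and TWEAK (the product of Tnfsf12) are known as mediators of wasting, and TNF also acts on myoblast proliferation and differentiation.

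Libraries held 38656497 and 92027838 counts for C/EBPβ and 40912955 and 37566321 for the empty vector. Cebpb itself stood at 483 and 473 CPM in C/EBPβ libraries and at 85.0 and 76.8 CPM in empty vector libraries, so both labels fit the overexpressed gene; reads of the vector's copy, where they map there, are part of this value. CPM are counts scaled to library size and corrected by the TMM factors of edgeR. FPKM are the same values per kilobase of exon and are used wherever levels of different genes are compared. Of the myoblast markers Myod1, Myf5, Pax7, Des, Cdh15, Itga7 and Chrna1, all 7 passed the count filter. Of these, 2 were called higher with C/EBPβ, Myf5 and Pax7, and the other 5 lower. All 7 together summed to 1872 and 2183 CPM with C/EBPβ and 3323 and 3611 CPM with the empty vector. The labels do not say whether libraries of a group came from separate transductions, so p-values measure the spread between these libraries, which may be technical.

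C/EBPβ myoblasts held more RNA for several TNF-family receptors and less for others, while most ligand genes had few or no counts in either group, Tnfsf12 and Tnfsf9 apart. Of the 51 genes, 33 had enough counts for a test, and 10 of them rose and 6 fell with C/EBPβ at an adjusted p of 0.05 (edgeR quasi-likelihood test, Benjamini-Hochberg over all genes tested). Across the 15078 genes tested, 24.9% were called, 14.1% as higher and 10.8% as lower. At least 2-fold differences were called in 5 members that rose and 3 that fell, against 6.24% and 3.46% of all tested genes. The median log2 fold change of the 33 was 0.05. Among the risers were the death receptors Fas and Tnfrsf21, the second TNF receptor Tnfrsf1b and the receptor Relt. The fallers were Traf1, Traf4, Eda2r, Tnfrsf12a, Tnfrsf22 and Tnfrsf26. Without C/EBPβ replicate 1 the counts were 7 higher and 3 lower.

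**Figure D1:**
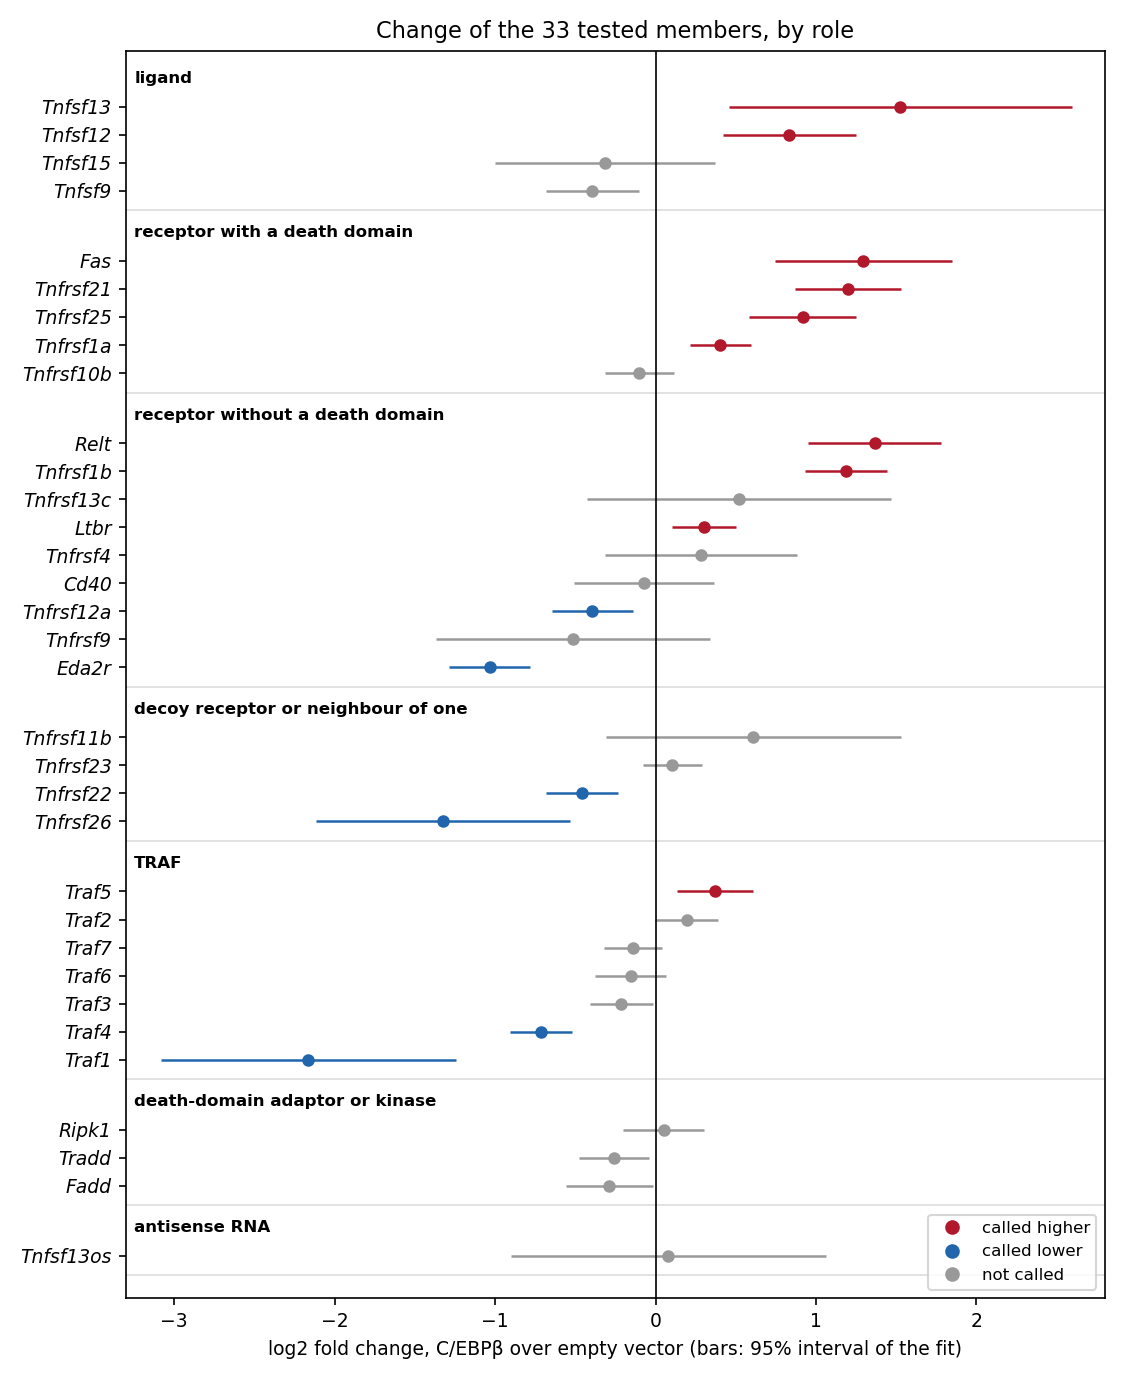
Log2 fold change of each tested member, C/EBPβ over empty vector, grouped by role; points are fitted values and bars their 95% intervals. Of 5 tested members with a receptor death domain 4 lie on the higher side as called genes, against 14.1% of all tested genes. Ngfr, a death-domain receptor that the symbols leave out and that is not drawn, fell by 4.46. TRAFs spread on either side of 0.

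Levels spanned a wide range. Tnfrsf12a, which encodes Fn14, the receptor of TWEAK, was by far the most abundant member per length, with a mean of 355 FPKM over the 4 libraries, above 99.5% of all tested genes. Tnfrsf1a (56.5 FPKM), Ltbr (52.3), Traf7 (28.7), Tnfrsf1b (21.2) and Traf4 (20.2) came next. In all, 9 members exceeded 10 FPKM, 15 lay between 1 and 10, and 27 lay below 1, of which 5 had 0 counts in every library. Receptors together made up 82.6% and 82.8% of the summed member FPKM with C/EBPβ and 83.3% and 81.2% with the empty vector. Receptors with a death domain summed to 93.3 and 85.8 FPKM with C/EBPβ and 68.3 and 65.5 FPKM with the empty vector. That was 15.1% and 13.8% of the member sum with C/EBPβ and 9.49% and 10.3% with the empty vector. Tnfrsf1a alone held 66.5 and 62.4 FPKM of the death-domain sum with C/EBPβ and 49.99 and 47.3 FPKM with the empty vector. The share also moves with Tnfrsf12a, which alone held 294 and 320 of 617 and 623 FPKM with C/EBPβ. With the empty vector Tnfrsf12a held 441 and 365 of 719 and 634 FPKM.

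**Figure D2:**
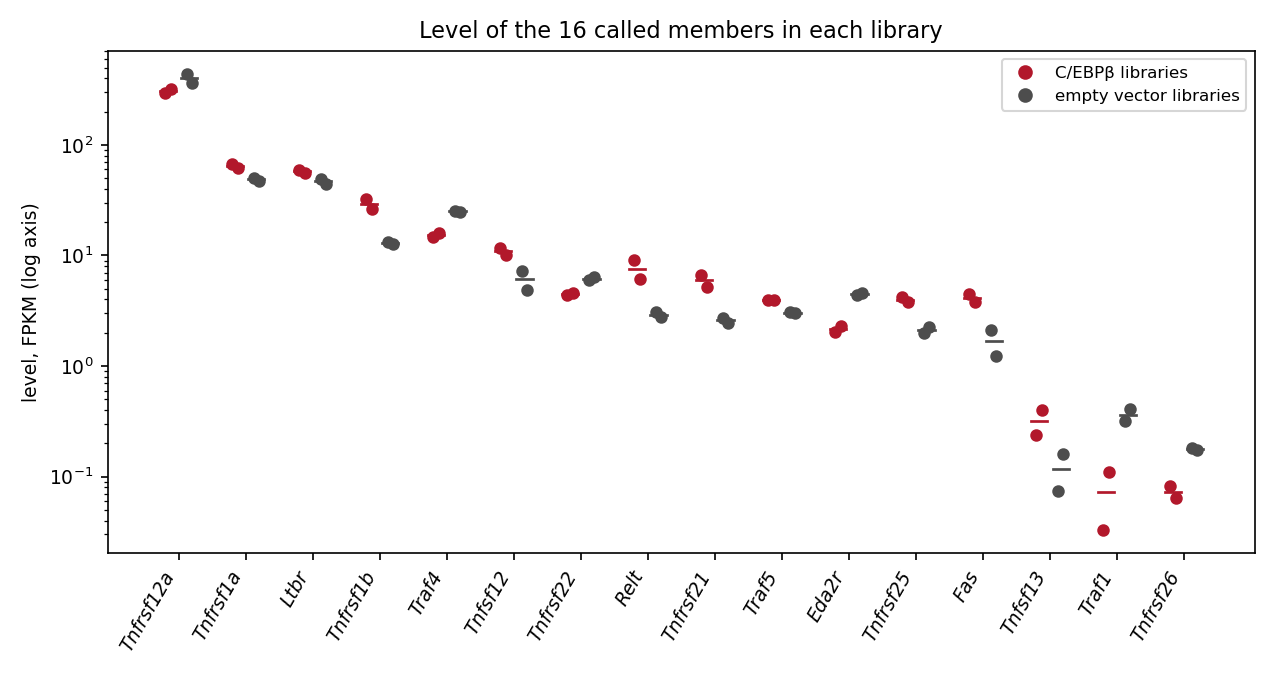
Level in FPKM, on a log axis, of the 16 called members in each library, ordered by their mean; points are libraries (C/EBPβ left, empty vector right) and short lines group means. The groups do not overlap for any of the 16, which were picked for a difference between these same libraries. Among all genes tested, 33.3% had both C/EBPβ libraries above and 32.9% both below the controls. Tnfrsf12a lies between 294 and 441 FPKM, and below 1 FPKM are Traf1, Tnfsf13 and Tnfrsf26.

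Ligand RNA was low for all but Tnfsf12 and Tnfsf9, which lay above 59.5% and 54.4% of tested genes per length. Of 14 ligands 4 had enough counts to be tested, 2 rose and none was called lower. Across all genes tested, the shares called higher and lower were 14.1% and 10.8%. Tnfsf12 (chromosome 11, 69686250 to 69695849, minus strand, GRCm38), the gene of TWEAK, had 17.6 and 15.4 CPM in C/EBPβ cells and 11.0 and 7.45 CPM in empty vector cells. Both C/EBPβ libraries were above both controls, with means of 16.5 ± 1.56 and 9.23 ± 2.52 CPM (SD, n = 2 each), and the log2 fold change was 0.83 (SE 0.18, adjusted p = 0.0111). Tnfsf13, the gene of APRIL, a B-cell growth factor, held 15 and 60 counts with C/EBPβ and 5 and 10 with the empty vector, which is 0.393 and 0.653 against 0.122 and 0.264 CPM. Its log2 fold change was 1.52 (SE 0.47, adjusted p = 0.0449), which missed the threshold when empty vector replicate 1 was omitted (1.05, adjusted p = 0.252), likewise for empty vector replicate 2 (2.15, 0.0683) and C/EBPβ replicate 2 (1.03, 0.330), and by DESeq2 (1.46, 0.217). Both genes share bases with the read-through gene Tnfsfm13 on the same strand, over 48.3% of the exon length of Tnfsf12 and 983 of the 1637 exon bases of Tnfsf13. Fragments in those stretches fit more than 1 gene and were not counted, so the levels are uncertain. FPKM still divide by the whole exon length, so for both genes they lean low. Tnfsf13os, on the opposite strand, had 0.341 and 0.392 CPM with C/EBPβ and 0.486 and 0.211 CPM with the empty vector, which overlap (log2 fold change 0.08, 95% interval -0.90 to 1.06).

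Tnfsf9, which encodes the ligand of the T-cell costimulator 4-1BB, stood at 7.16 and 7.56 CPM with C/EBPβ and 9.75 and 9.65 CPM with the empty vector. These groups did not overlap, but the log2 fold change of -0.40 (95% interval -0.69 to -0.10) missed the threshold (adjusted p = 0.0534) and passed it with libraries scaled by their totals (adjusted p = 0.0454), with a filter of 1 CPM in 2 libraries (adjusted p = 0.0499) and with the replicate number as a block (adjusted p = 0.0313). Tnfsf15 had 1.52 and 0.925 CPM with C/EBPβ and 1.29 and 1.64 CPM with the empty vector, and these overlap. Tnf, the founding cytokine of the family, held 3 and 17 counts with C/EBPβ and 2 and 4 with the empty vector, that is 0.0480 and 0.113 against 0.0297 and 0.0645 FPKM. These overlap, and Tnf, which the count filter removed, was not called when tested with no filter (log2 fold change 0.95, adjusted p = 0.545). Fasl had 1 and 4 counts with C/EBPβ and Tnfsf11, the gene of RANKL, had 2 and 6, while both had 0 in the empty vector libraries. Set against a floor of 3 counts over the empty vector group, with uncorrected library totals, Tnfsf11 stood 1.60-fold higher with C/EBPβ and Fasl level. These ratios leave out counting error in the C/EBPβ counts. With no filter neither Tnfsf11 (adjusted p = 0.198) nor Fasl (adjusted p = 0.412) was called. Tnfsf13b, the gene of the B-cell factor BAFF, held 8 and 33 counts with C/EBPβ against 6 and 6, Tnfsf18 held 6 and 7 against 12 and 3, and Eda, the ligand of skin appendage development, 3 and 3 against 4 and 1. Tnfsf4, Tnfsf8, Tnfsf10 (the gene of TRAIL) and Tnfsf14 had 0 counts in all 4 libraries, which at the same floor allows up to 0.0230 CPM over the C/EBPβ group and 0.0382 CPM over the empty vector group, on uncorrected totals. Such limits cover counting error only.

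Several ligands were far below their receptors per length. Tnf, below 0.12 FPKM in every library, is set against its receptor Tnfrsf1a at 66.5 and 62.4 FPKM with C/EBPβ and 49.99 and 47.3 FPKM with the empty vector. TWEAK was the best represented pair, with Tnfsf12 at 11.6 and 10.2 FPKM and its receptor Tnfrsf12a at 294 and 320 FPKM in C/EBPβ cells, and in empty vector cells at 7.27 and 4.92 FPKM for the ligand and 441 and 365 FPKM for the receptor. In this pair the ligand was called higher and the receptor lower. FPKM of the ligand lean low, given the bases it shares with Tnfsfm13. In the Tnfsf9 pair the ligand was the more abundant partner. It had 5.82 and 6.15 FPKM with C/EBPβ and 7.93 and 7.84 FPKM with the empty vector, while its receptor Tnfrsf9 had 0.0867 and 0.124 against 0.134 and 0.184 FPKM. For Tnfrsf25 and its ligand Tnfsf15 the receptor had 4.17 and 3.81 FPKM with C/EBPβ and 1.98 and 2.24 FPKM with the empty vector, and the ligand 0.454 and 0.276 against 0.385 and 0.490 FPKM.

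**Figure D3:**
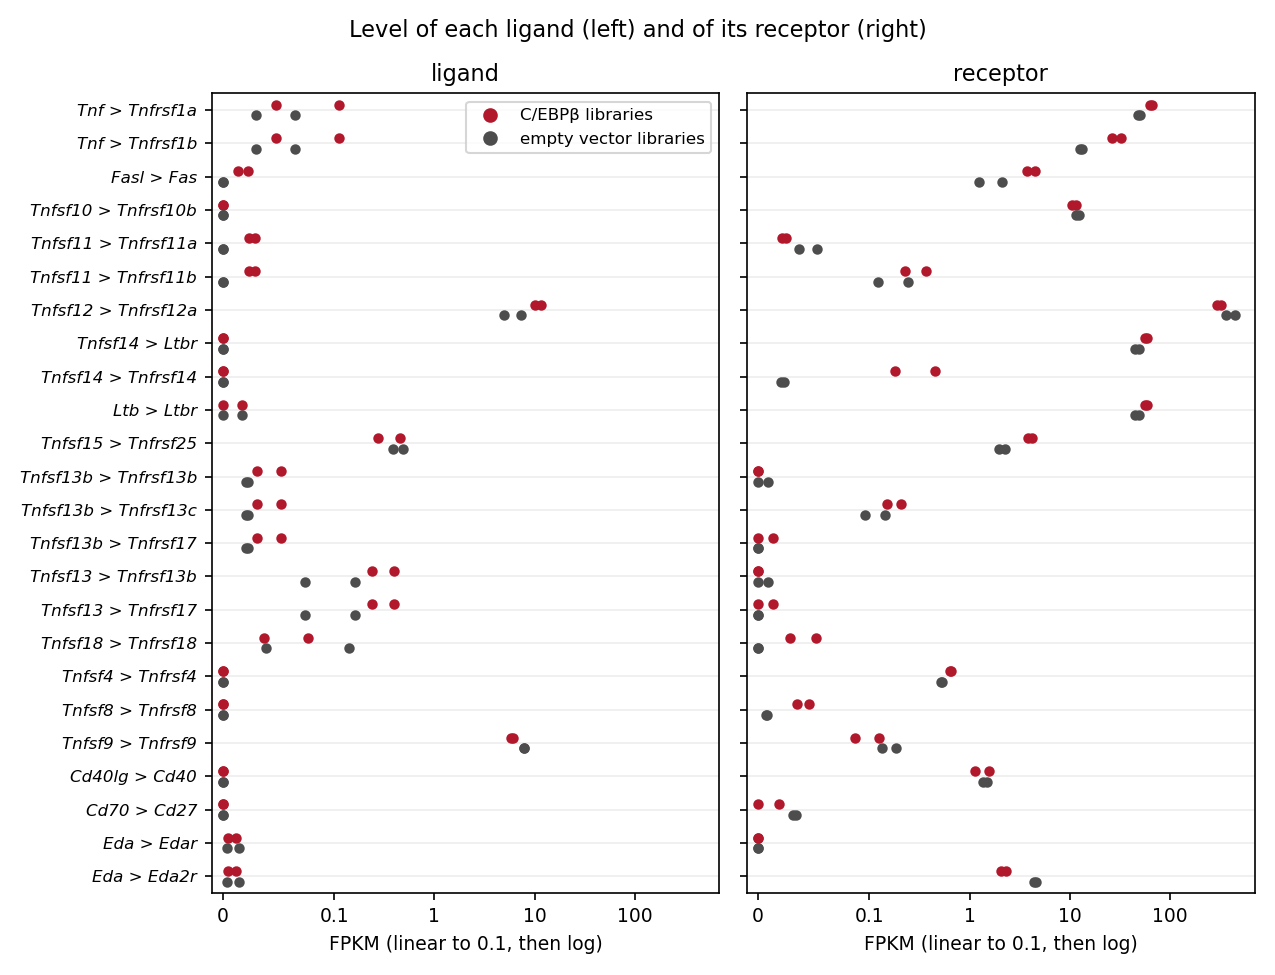
Level in FPKM of each ligand (left) and of its receptor (right), 1 row a pair, on an axis that is linear up to 0.1 and logarithmic above; points are libraries. Tnfsf12 and Tnfsf9 are the ligands above 1 FPKM, whereas Tnfrsf12a, Tnfrsf1a, Ltbr, Tnfrsf1b and Tnfrsf10b lie above 10 FPKM in every library.

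Receptors with a death domain that the symbols take in gave 4 rises among 5 tested, while 14.1% of all tested genes were called higher. Ngfr, a death-domain receptor of the superfamily whose symbol leaves it out, fell by 4.46 on the log2 scale (adjusted p = 7.92e-05). Fas (chromosome 19, 34290659 to 34327770, plus strand), the receptor through which T cells induce apoptosis, had 8.10 and 6.80 CPM in C/EBPβ cells and 3.79 and 2.22 CPM in empty vector cells. The lower C/EBPβ library was above the higher control, and the log2 fold change was 1.296 (SE 0.24, adjusted p = 0.00528). Tnfrsf21 (chromosome 17, 43016555 to 43089188, plus strand), also called death receptor 6, had 24.3 and 19.0 CPM with C/EBPβ and 9.80 and 8.93 CPM with the empty vector, a log2 fold change of 1.201 (SE 0.14, adjusted p = 5.99e-04). Tnfrsf25, or death receptor 3, the receptor of Tnfsf15, had 9.49 and 8.68 CPM with C/EBPβ and 4.498 and 5.10 CPM with the empty vector (0.92, SE 0.15, adjusted p = 0.00247). The groups were apart for all these genes, and each call held under all 11 alternatives of processing, leaving out any 1 library included.

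Tnfrsf1a, the main receptor of soluble TNF, changed less. It stood at 172 and 162 CPM with C/EBPβ and 130 and 123 CPM with the empty vector, with a log2 fold change of 0.40 (SE 0.08, adjusted p = 0.00871) that did not pass without C/EBPβ replicate 1 (0.36, adjusted p = 0.0749). Tnfrsf10b, the mouse death receptor of TRAIL, had 36.5 and 33.6 CPM with C/EBPβ and 36.4 and 38.7 CPM with the empty vector. Those ranges overlap, and the 95% interval of its log2 fold change ran from -0.31 to 0.11. Edar, the receptor of Eda in skin appendages, had 0 counts in every library.

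Receptors without a death domain moved both ways: of 9 tested, 3 rose and 2 fell, and 7 more had too few counts. Of all genes tested, 14.1% were called higher and 10.8% lower. Tnfrsf1b (chromosome 4, 145213463 to 145246870, minus strand), the second TNF receptor, bound best by membrane TNF, had 125 and 100.3 CPM with C/EBPβ and 50.5 and 48.3 CPM with the empty vector. That is 113 ± 17.4 against 49.4 ± 1.58 CPM (SD, n = 2 each), a log2 fold change of 1.19 (SE 0.11, adjusted p = 2.07e-04). Relt (chromosome 7, 100845847 to 100863446, minus strand), a receptor first known from lymphoid tissue, had 29.6 and 20.1 CPM with C/EBPβ and 10.1 and 9.09 CPM with the empty vector (1.37, SE 0.18, adjusted p = 0.00104). In both genes the C/EBPβ libraries lay well above the controls and replicate 1 was the higher of them. Ltbr, the lymphotoxin-β receptor, an activator of noncanonical NF-κB, had 140 and 132 CPM with C/EBPβ and 115 and 105 CPM with the empty vector. Its log2 fold change of 0.30 (SE 0.09, adjusted p = 0.0346) no longer passed when empty vector replicate 2 (adjusted p = 0.0915), C/EBPβ replicate 1 (0.270) or C/EBPβ replicate 2 (0.0719) was left out.

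Eda2r (chromosome X, 97333840 to 97377216, minus strand), a receptor of the A2 form of ectodysplasin known as a p53 target, had 11.98 and 13.6 CPM with C/EBPβ and 25.7 and 26.9 CPM with the empty vector. The C/EBPβ level was about as far below the controls in either library, with a log2 fold change of -1.04 (SE 0.11, adjusted p = 3.59e-04), which held in every alternative. Tnfrsf12a had 283 and 308 CPM with C/EBPβ and 425 and 352 CPM with the empty vector, and the controls differ more from each other than the C/EBPβ libraries do. Its log2 fold change was -0.39 (SE 0.11, adjusted p = 0.0336), which did not pass once empty vector replicate 1 (-0.25, adjusted p = 0.113) or C/EBPβ replicate 1 (-0.34, adjusted p = 0.121) was left out. Cd40, an activating receptor of B cells and macrophages, had 3.83 and 5.27 CPM with C/EBPβ and 5.08 and 4.599 CPM with the empty vector, which overlap (95% interval of the log2 fold change -0.51 to 0.37). Tnfrsf4, Tnfrsf9 and Tnfrsf13c, known from T and B cells, were tested at levels below 1 CPM and were not called, with log2 fold changes of 0.28, -0.52 and 0.52 and intervals that include 0.

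Among the receptors with too few counts, Tnfrsf14, or HVEM, the receptor of Tnfsf14, stood out. It held 20 and 19 counts with C/EBPβ and 1 and 1 with the empty vector, or 0.524 and 0.207 against 0.0243 and 0.0264 CPM. The ratio over the groups, on uncorrected totals, was 11.7 (95% counting interval 3.03 to 100.1). With no low-count filter Tnfrsf14 was called higher (adjusted p = 8.78e-05). Its log2 fold change was 4.21 without C/EBPβ replicate 2. With the first and second empty vector library omitted it was 3.51 and 3.63, and the call did not hold. Without C/EBPβ replicate 1, where its CPM was highest, Tnfrsf14 did not pass the count filter. Tnfrsf8, or CD30, held 6 and 11 counts with C/EBPβ and 1 and 1 with the empty vector (ratio 5.10, 95% counting interval 1.21 to 45.6) and was not called with no filter (adjusted p = 0.146). Tnfrsf18, or GITR, held 3 and 4 counts with C/EBPβ and 0 with the empty vector, 1.401-fold a floor of 3 counts over the group. That ratio leaves out counting error in the C/EBPβ counts, and with no filter Tnfrsf18 was not called (adjusted p = 0.248). Tnfrsf11a, the receptor RANK, had 5 and 14 counts with C/EBPβ and 9 and 12 with the empty vector, or 0.131 and 0.152 against 0.219 and 0.317 CPM. Tnfrsf19 held 1 and 4 counts in either group, Tnfrsf13b a single count in an empty vector library and Tnfrsf17 a single count in a C/EBPβ library. With no filter, 13 of the 18 untested members could be tested, and Tnfrsf14 was the 1 called.

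Decoy receptors bind ligand without signalling. Tnfrsf22 and Tnfrsf23 are mouse decoys for TRAIL and lie beside Tnfrsf26 on chromosome 7. Tnfrsf22 had 18.5 and 19.4 CPM with C/EBPβ and 25.5 and 26.7 CPM with the empty vector (log2 fold change -0.46, SE 0.10, adjusted p = 0.0107, and adjusted p = 0.0568 without C/EBPβ replicate 1). Tnfrsf23 had 46.1 and 46.3 CPM with C/EBPβ and 43.1 and 42.8 CPM with the empty vector and was not called (0.11, 95% interval -0.08 to 0.29). Tnfrsf26 held 10 and 19 counts with C/EBPβ and 24 and 21 with the empty vector. Its log2 fold change of -1.32 (SE 0.35, adjusted p = 0.0243) did not pass in DESeq2 (adjusted p = 0.201) or with any 1 of the 4 libraries left out. Omitting C/EBPβ replicate 1 and 2 gave adjusted p of 0.0548 and 0.207, and omitting the first and second control gave 0.124 and 0.0940. Tandem copies can share sequence, and how fragments that map to more than 1 of them were counted was not examined here, which leaves these levels uncertain. Tnfrsf11b, the secreted decoy osteoprotegerin, which binds RANKL, had 1.02 and 0.631 CPM with C/EBPβ and 0.681 and 0.344 CPM with the empty vector, and these overlap (0.61, 95% interval -0.31 to 1.53).

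All 7 TRAFs passed the count filter, and 2 fell and 1 rose, against 10.8% and 14.1% of all tested genes. Traf1 (chromosome 2, 34941750 to 34961772, minus strand), a TRAF without a RING domain that is itself induced by NF-κB, had 0.288 and 0.980 CPM with C/EBPβ and 2.82 and 3.57 CPM with the empty vector. Both C/EBPβ libraries were below both controls, but they differed more than 3-fold from each other. The log2 fold change was -2.16 (SE 0.40, adjusted p = 0.00536), and it was -3.45 without C/EBPβ replicate 2 and -1.70 without C/EBPβ replicate 1, a call in each case. Traf4 (chromosome 11, 78158499 to 78165589, minus strand), a TRAF with roles in cell migration and development, fell to 48.2 and 52.7 CPM with C/EBPβ, against 83.6 and 81.9 CPM with the empty vector. Its log2 fold change of -0.71 (SE 0.08, adjusted p = 5.58e-04) held in every alternative. Traf5, a partner of Ltbr and Cd40, had 17.9 and 18.0 CPM with C/EBPβ and 14.1 and 13.8 CPM with the empty vector. Its rise of 0.37 (SE 0.10, adjusted p = 0.0334) did not pass with any 1 library left out, at adjusted p of 0.147 and 0.136 on omitting C/EBPβ replicate 1 and 2 and of 0.0586 and 0.0706 on omitting the first and second control.

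Traf2, the TRAF recruited to both TNF receptors, had 47.1 and 47.0 CPM with C/EBPβ and 39.6 and 42.7 CPM with the empty vector, apart but not called (0.19, 95% interval -0.0016 to 0.39, adjusted p = 0.139). Traf3, a brake on noncanonical NF-κB, had 47.2 and 46.6 CPM with C/EBPβ and 51.9 and 56.9 CPM with the empty vector (-0.21, adjusted p = 0.110). Traf6, which serves interleukin-1, Toll-like and RANK signalling, had -0.16 (95% interval -0.38 to 0.06). Traf7, the most abundant TRAF per length, had -0.14 (95% interval -0.32 to 0.04).

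None of the 3 shared death-domain partners was called by edgeR, DESeq2 or limma-voom, and 2 of the 3 had an unadjusted edgeR p under 0.05. Ripk1, the kinase that joins survival and death signalling of Tnfrsf1a, had 30.4 and 30.0 CPM with C/EBPβ and 26.5 and 31.8 CPM with the empty vector (0.05, 95% interval -0.20 to 0.30). A noncoding neighbour, Gm17084, shares 34.3% of its exon bases on the same strand, where fragments were not counted. Tradd, the adaptor of Tnfrsf1a, had 26.7 and 27.4 CPM with C/EBPβ and 33.5 and 31.2 CPM with the empty vector (-0.26, adjusted p = 0.0818). Fadd, the adaptor that brings caspase-8 to death receptors, had 15.7 and 14.9 CPM with C/EBPβ and 20.2 and 17.2 CPM with the empty vector (-0.29, adjusted p = 0.114, and a call at 0.0486 without empty vector replicate 2). For Tradd and Fadd the groups did not overlap. Among the 33 tested members, 14 had both C/EBPβ libraries above and 13 had both below the controls, and among all genes tested 33.3% and 32.9% did.

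The 2 C/EBPβ libraries were not equally far from the controls. Set against the mean of the empty vector libraries, 13 of the 16 called members were farther from it in C/EBPβ replicate 1 than in replicate 2. The same held for 83.6% of the 3759 genes called across the table. Traf1 differed most, at -3.42 on the log2 scale in replicate 1 and -1.70 in replicate 2, followed among the called members by Tnfsf13 at 0.99 and 1.71 and Relt at 1.63 and 1.07. Tnfsf13, Tnfrsf26 and Traf5 were the called members farther from the controls in replicate 2. Cebpb differed little between these libraries, at 483 and 473 CPM.

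**Figure D4:**
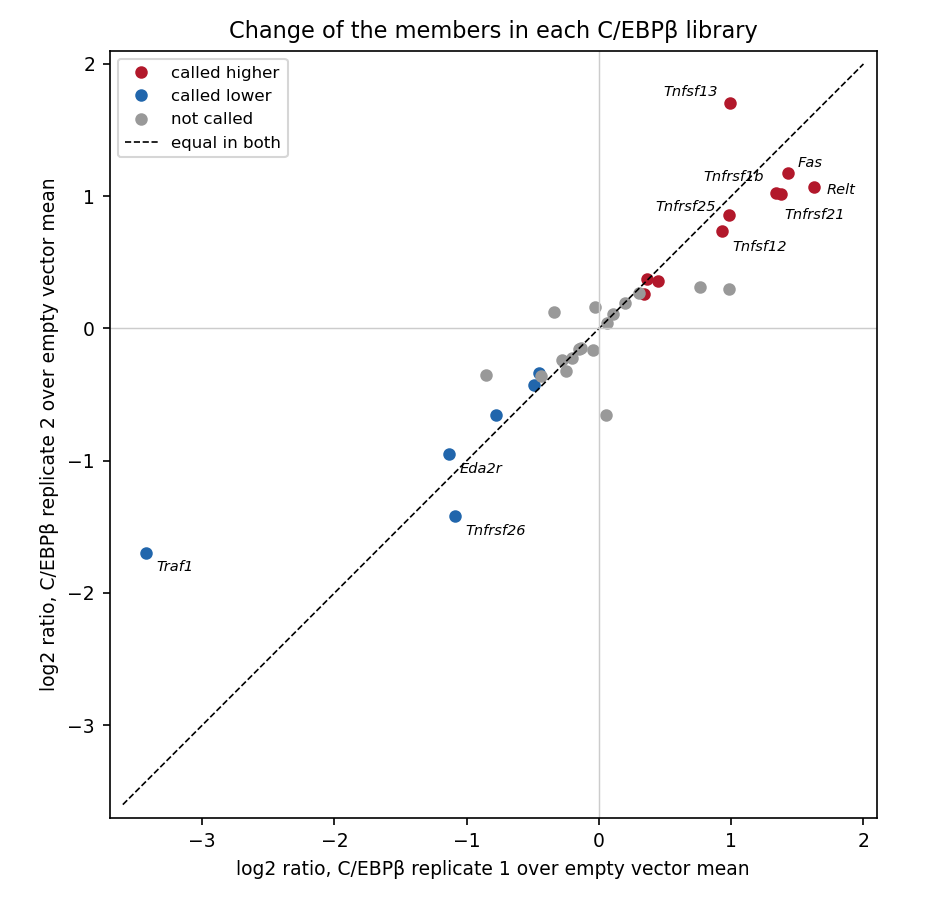
Log2 ratio of each tested member to the mean of the empty vector libraries, in C/EBPβ replicate 1 (horizontal) and replicate 2 (vertical); the dashed line marks equal ratios. Traf1 lies farthest from the line, and called members that rose lie mostly below it.

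Many members are neighbours in the genome. In 8 groups with gaps of at most 100 kb lie 18 members. Ltbr and Tnfrsf1a, on opposite strands of chromosome 6 with 35476 bases between them, were both called higher. Tnfsf13 and Tnfsf12, adjacent on chromosome 11, were both called higher as well. On chromosome 7, Tnfrsf26 and Tnfrsf22 were called lower and Tnfrsf23 was not called. Tnfrsf1b, called higher, lies 20266 bases from Tnfrsf8, which was too low to test.

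Promoter windows of RefSeq, from 250 bases before to 50 after the start on GRCm38.p6, were found for 41 of the 51 members and 13 of the 16 called ones. They were searched on both strands for TTGCNNAA and TTGCGCAA, forms of the site bound by C/EBP proteins, and for GGGNNTTTC, a form of the NF-κB site. TTGCGCAA is also a case of TTGCNNAA. TTGCNNAA was found in 4 of 46 member windows and in 10.8% of all 32851 windows, TTGCGCAA in 0 and 0.183%, and GGGNNTTTC in 5 and 4.36%. Among called members the matches were 1 in Eda2r, whose RNA fell, and 1 in Tnfrsf25, whose RNA rose. Both windows are printed 5′ to 3′ on the gene's strand, with the match in capitals, because they are the called members that hold a searched motif. The match in Eda2r (chrX:97377160-97377459, minus strand) starts 79 bases before the start, and that in Tnfrsf25 (chr4:152115684-152115983, plus strand), on the opposite strand, 217 bases before it.
Eda2r: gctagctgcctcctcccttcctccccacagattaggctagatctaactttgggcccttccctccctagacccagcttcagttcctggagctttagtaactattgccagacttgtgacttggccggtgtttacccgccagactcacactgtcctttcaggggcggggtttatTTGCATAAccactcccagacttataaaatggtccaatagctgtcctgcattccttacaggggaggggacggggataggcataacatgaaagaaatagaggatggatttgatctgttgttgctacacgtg
Tnfrsf25: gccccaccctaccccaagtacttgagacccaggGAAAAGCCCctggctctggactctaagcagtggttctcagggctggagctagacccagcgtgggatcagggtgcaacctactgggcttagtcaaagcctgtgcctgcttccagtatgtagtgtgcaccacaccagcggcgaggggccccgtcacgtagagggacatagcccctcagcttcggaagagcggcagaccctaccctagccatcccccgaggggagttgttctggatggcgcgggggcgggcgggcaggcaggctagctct

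Other genes of TNF receptor signalling came from 7 lists, in which 10 of 62 tested genes rose and 7 fell. The called share was 27.4%, against 24.9% of all tested genes. Median log2 fold changes of the lists with more than 1 tested gene ran from -0.06 to 0.04. Of the superfamily genes that the symbol rule leaves out (Lta, Ltb, Cd70, Cd27, Cd40lg, Ngfr and the adaptor Edaradd), Ngfr was the 1 of 7 with enough counts. Ltb, paired with Ltbr as its ligand, held 1 and 0 counts with C/EBPβ and 0 and 1 with the empty vector. Ngfr, the p75 neurotrophin receptor, which carries a death domain, had 0.183 and 0.718 CPM with C/EBPβ and 11.3 and 12.03 CPM with the empty vector (-4.46, SE 0.35, adjusted p = 7.92e-05). The MAP kinase list had 1 rise and 2 falls among 13. Its riser was Map3k5, the gene of ASK1, a stress kinase that binds TRAF2, at 20.03 and 15.9 CPM with C/EBPβ and 1.46 and 0.687 CPM with the empty vector (4.04, SE 0.27, adjusted p = 3.96e-05). Tnik, a kinase known to bind TRAF2, fell by 1.33 on the log2 scale and Jun by 0.29.

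Among 13 tested ubiquitin and IAP regulators of the receptor complex, 3 rose and 2 fell. Tnfaip3, which encodes A20, a feedback inhibitor of TNF signalling, had 19.7 and 18.2 CPM with C/EBPβ and 34.5 and 36.7 CPM with the empty vector (-0.91, SE 0.10, adjusted p = 3.88e-04). Tnip2, a partner of A20, had -0.36. Cyld, a deubiquitinase that limits NF-κB, had 119 and 114 CPM with C/EBPβ and 85.5 and 88.3 CPM with the empty vector (0.42, adjusted p = 0.00569), and Tnip1, another A20 partner, had 0.44 (adjusted p = 0.0149). This list had 1 call in each direction when either empty vector replicate 2 or C/EBPβ replicate 1 was omitted.

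The canonical NF-κB list had 2 rises in 14, Rel (0.50) and the inhibitor Nfkbia (0.41), and 0 when either empty vector replicate 2 or C/EBPβ replicate 1 was omitted. None of 5 noncanonical genes was called by edgeR, DESeq2 or limma-voom, 1 had an unadjusted edgeR p under 0.05, and the most abundant per length were Nfkb2 (0.01) and Chuk (-0.10). With the replicate number as a block, or on omitting empty vector replicate 1, 1 of the 5 was called lower. In the caspase and necroptosis list 2 of 10 rose and 2 fell. The necroptosis kinase Ripk3 rose by 0.45, while Bid, which links death receptors to mitochondria, fell by 0.49 and Mlkl, the necroptosis effector, by 0.50. The rises numbered 0 without C/EBPβ replicate 1 and 1 without any other single library. Of 8 tested genes of sheddases and their regulators 2 rose. These were the membrane metalloproteinase Mmp14 (0.59) and Timp3 (0.63), an inhibitor of the TNF sheddase Adam17, which itself had -0.08 (adjusted p = 0.565). Falls in the MAP kinase list numbered 0 on omitting empty vector replicate 2, and 1 on omitting either C/EBPβ library.

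**Figure D5:**
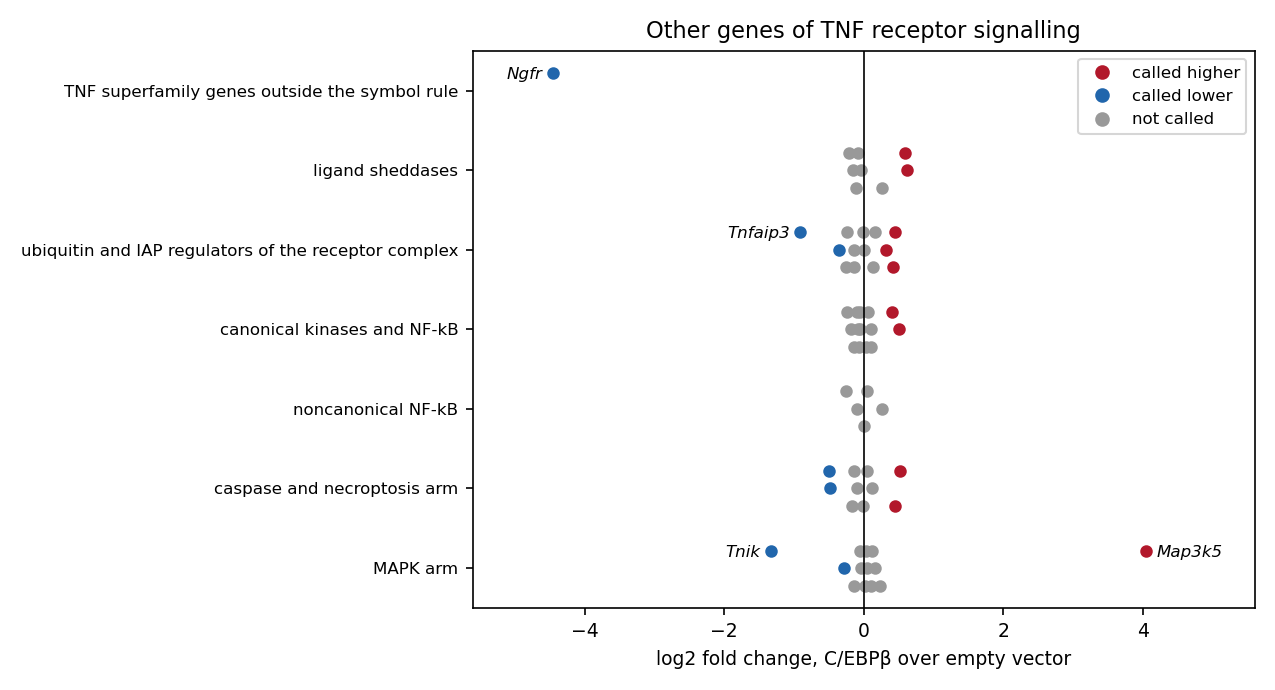
Log2 fold change, C/EBPβ over empty vector, of the tested genes in 7 lists of TNF receptor signalling; each point is a gene and colours mark calls. Ngfr and Map3k5 lie beyond 4 in either direction, and most other genes lie within 0.6 of 0.

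Many TNF-family genes are chiefly known from leukocytes. Of 12 leukocyte markers 3 had enough counts to be tested, and their summed level was 8.75 and 9.01 CPM with C/EBPβ and 6.88 and 6.26 CPM with the empty vector. No counts fell on Tyrobp, Adgre1, Itgam or Cd3e, and at most 2 per library on Ptprc, while Csf1r was called higher (1.33, adjusted p = 0.0235) and Cd68 and Coro1a were not called. Of 7 endothelial markers 2 were tested, with sums of 1.21 and 1.26 CPM with C/EBPβ and 0.705 and 0.502 CPM with the empty vector. Vwf was called higher (1.82, adjusted p = 0.0080), Kdr was not (0.00, adjusted p = 0.998), and Emcn was at 0. For 8 osteoblast and chondrocyte markers, 5 of them tested, the sums were 389 and 191 CPM with C/EBPβ and 69.7 and 60.9 CPM with the empty vector. Alpl held 283 and 105 CPM of this with C/EBPβ and 0.146 and 0.0529 CPM with the empty vector. Runx2 was also called higher (0.61), Dmp1 was called lower (-1.39, adjusted p = 0.00322), and Sp7 and Col2a1 were not called. For 6 fibroblast markers, 4 of them tested, they were 961 and 559 CPM with C/EBPβ and 141 and 117 CPM with the empty vector. Col1a1 made up 864 and 494 CPM of this with C/EBPβ and 110 and 90.6 CPM with the empty vector. Col1a1, Pdgfra and Dpt were called higher, Dcn was not called (0.15, adjusted p = 0.633), and Thy1 and Lum had at most 1 count in a library. The part of these genes' cell types in the changes of TNF-family RNA was not tested, and in bulk RNA a change in the number of cells of a type cannot be told apart from a change in RNA per cell.

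The authors' deposited table, which does not name its libraries, lists 40 of the 51 members. Its base means did not come from the 4 libraries' counts alone. Itgam, with 0 counts in all 4, has a base mean of 7.39 there, and Tnfrsf19, with 1 and 4 counts in either group, has 35.2. The deposited calls therefore come from an unlike fit. An adjusted p of 0.05 is passed there by 10 members as higher and 8 as lower, in the authors' deposited table. Of the 16 called here, 14 also pass in the authors' deposited table with the same sign, and Tnfsf13 (adjusted p = 0.0676) and Tnfrsf26 (adjusted p = 0.0908) do not. Traf3, Tradd and Tnfsf9 pass in the authors' deposited table (adjusted p = 0.0363, 0.0379 and 0.0262), as does Tnfrsf14 (log2 fold change 2.22, adjusted p = 0.00264). All 33 members tested here have the same sign in the authors' deposited table. The deposited log2 fold change minus the one fitted here had a median of -0.04. The 2 fits may share libraries, so like signs are no independent support.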

How the data were processed

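Counts are whole-number fragment counts per gene as deposited, made with featureCounts 1.5.1 (paired, reverse-stranded) on GENCODE M12 and GRCm38, per the file headers; the submitters' processing notes name HISAT2 2.0.4, featureCounts 1.4.6 and DESeq2. The authors' deposited table holds a base mean (signal), log2 fold changes with standard errors, a test statistic (score) and p-values. Gene lengths came from the deposited count files.

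Here the counts were tested with the edgeR 4.0.16 quasi-likelihood test in R 4.3.3 (TMM scaling, filterByExpr with minimum count 10 and total 15, no covariate), C/EBPβ over empty vector, with Benjamini-Hochberg adjustment over the 15078 genes tested. Standard errors are the log2 fold change divided by the root of F. The fit was tested on simulated data. DESeq2 1.42.0, limma-voom 3.58.1, other scalings and filters, a replicate block and leaving out each library were alternatives. Per-library ratios used 0.01 CPM as pseudocount. Members and lists were chosen with earlier results of these data known. By rule, library values are given for called members, for ligand-receptor pairs with one, and for Tnf, Tnfrsf1a, Tnfrsf1b, Fas, Traf2 and Ripk1; each list gives up to 2 called genes in each direction by smallest adjusted p, or else the 2 most abundant. Library values of other uncalled members, and Adam17, were added after their values were seen. Proteins were not compared here, and 1 called gene of the caspase and necroptosis list is not reported here.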

Additional observations from a re-analysis of the deposited data

How the results depend on the processing

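The cause of the changes below was not tested. Across the 11 alternatives, members called higher numbered between 7 and 11 and members called lower between 3 and 7. Leaving out 1 library gave 7 to 8 higher and 3 to 6 lower members, and 1527 to 2076 higher and 966 to 1386 lower genes over the whole table. Of the 16 called members, 9 kept their call and direction in every alternative run: Fas, Tnfrsf21, Tnfrsf25, Tnfrsf1b, Relt, Tnfsf12, Eda2r, Traf1 and Traf4. Signs turned for 4 members that were not called. With each library left out in turn, log2 fold changes ran from -0.0767 to 0.183 for Ripk1 (below 0 without empty vector replicate 1), from -0.340 to 0.12 for Cd40 (above 0 without empty vector replicate 1, at 0.000269, or C/EBPβ replicate 1), from -0.659 to 0.0573 for Tnfsf15 (above 0 without C/EBPβ replicate 2) and from -0.385 to 0.808 for Tnfsf13os (below 0 without empty vector replicate 2, or C/EBPβ replicate 2 at -0.0500). The filter of 1 CPM in 2 libraries removed 7 of the 33 tested members. Replicate numbers are shared by the groups, but nothing in the labels pairs them; differences between replicates correlated across genes between the groups at 0.147, and the replicate block called 10 members higher and 7 lower, and 2573 and 1963 genes. The count filter left 10 of 14 ligands untested, and 4 of these had 0 counts in every library.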
